A study of Mus musculus with 6 samples.

Results

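The transcription factors that direct the osteoblast lineage were followed in primary mouse calvarial osteoblasts as 9 genes: Runx2, Sp7, Dlx3, Dlx5, Msx1, Msx2, Sox11, Twist1 and Rorb. They were chosen by gene symbol, through the RefSeq accession of each probe, and they were measured by 12 of the 39429 probes, against 32451 genes on the array. The cells came from the calvaria of 2 to 5 day old newborn CD1 mice and were grown to confluence. Undifferentiated osteoblasts were collected at that stage. Differentiated osteoblasts were kept afterwards for 30 days in differentiation medium, which contains ascorbic acid and β-glycerol phosphate. Cabozantinib-treated osteoblasts were kept for the same 30 days in that medium with 100 nM cabozantinib, a kinase inhibitor of MET and VEGFR2. Each condition had 2 Cy3-labeled 1-color arrays, and no source ties the replicates to separate animals or cultures, so P values measure the spread between these arrays, which may be technical. In bulk cultures, fewer cells of a type and less RNA per cell cannot be told apart.

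Bone formation in the skull starts from mesenchymal cells that commit to the osteoblast lineage under Runx2, and Sp7 (osterix) acts after Runx2 in the same cells. Homeodomain factors of the Msx and Dlx families bind similar TAAT sites, with Msx proteins mostly repressing and Dlx proteins mostly activating osteoblast genes. Twist1 restrains Runx2 in immature calvarial cells, Sox11 acts in skeletal progenitors, and Rorb is an orphan nuclear receptor that restrains osteoblast genes.

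The level of a gene is given as the log2 signal relative to the 75th percentile of its array, at the brightest tested probe of the gene. A level compares one probe between arrays and does not rank genes. The scanner software called 58.8% to 72.9% of the spots well above background, and no spot was saturated. The signal was well above background on each of the 6 arrays for 6 of the 9 genes. Runx2 was above it on 3 arrays, Sp7 on 4 and Sox11 on 2. A difference was called at an adjusted p under 0.05 with limma, with Benjamini-Hochberg adjustment over all 27236 probes tested. The 7 osteoblast markers that were checked, among them Col1a1, Alpl and Ibsp, were well above background on every array. The 2 cabozantinib arrays were scanned apart from the other 4, so that scan and cabozantinib cannot be told apart in any comparison that includes them.

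In differentiated against undifferentiated osteoblasts, Msx1, Msx2 and Sox11 fell and none of the other 6 factors passed the test. The count of 3 of 9 stands beside 13.4% of all 23086 genes tested, and the 3 that fell stand beside 6.25% of genes called lower. Sox11 passed the filter on low values only through the undifferentiated arrays, where it was high. When only genes well above background on all 6 arrays were tested, 2 of 6 factors were called, Msx1 and Msx2, beside 15.1% of all genes. The median log2 difference of the 9 factors was -1.85, the value of Sp7, and it rests partly on arrays at background. It was -0.37 over the 6 factors above background on all arrays, against 0.11 over all such genes, and -0.65 over the 9 with normexp, a background correction that adds an offset of 50 to the signals. In 5 of the 9 factors both differentiated arrays were below both undifferentiated arrays, a pattern found in 19.4% of all genes. In 2 of the 9 they were above, as in 25.9% of all genes, so that the groups did not overlap in 45.2% of all genes. The level of each factor on every array is plotted by condition.

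**Figure D1:**
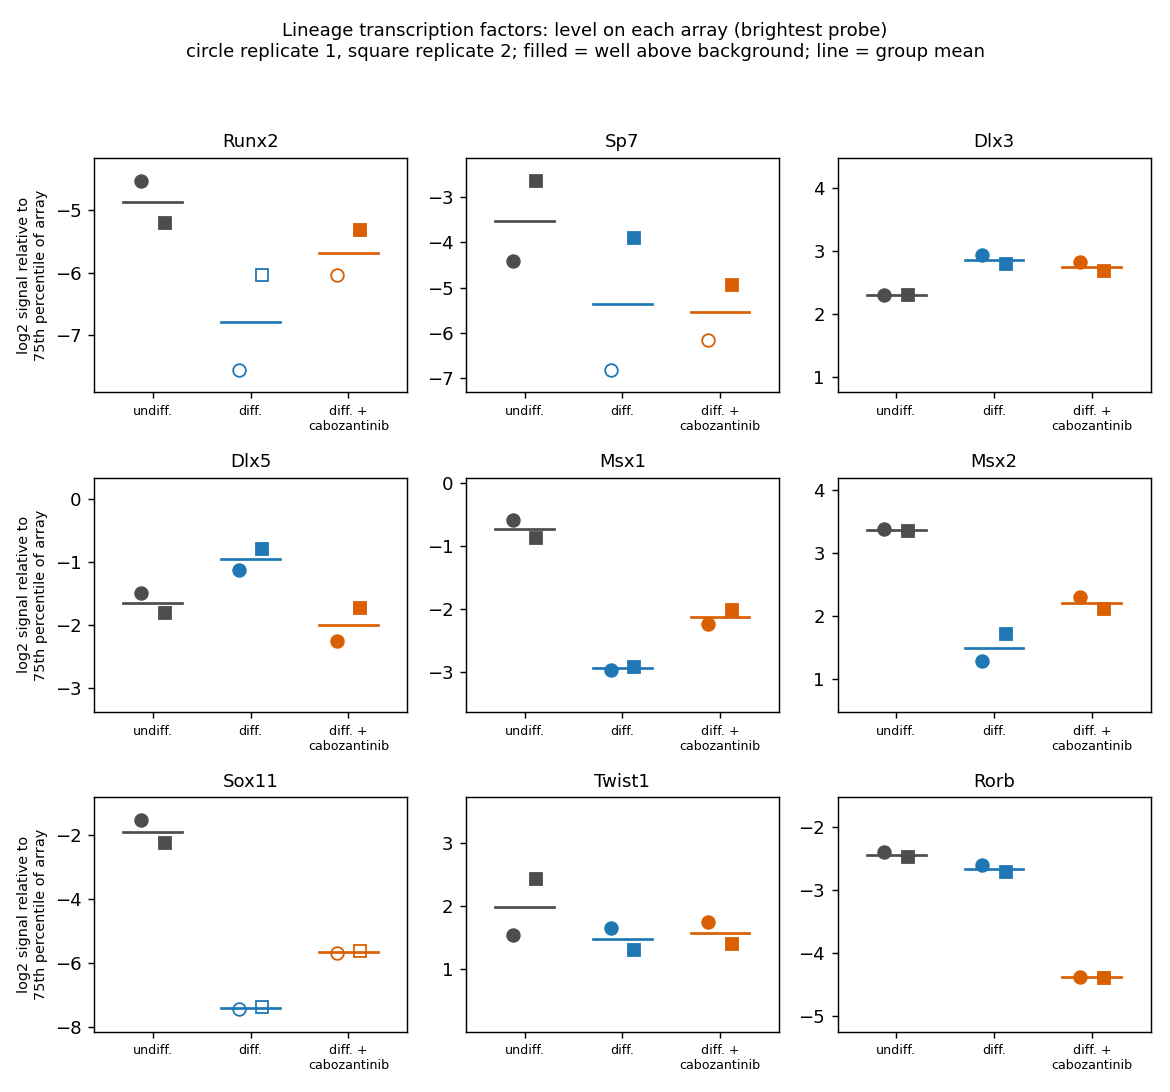
Log2 signal relative to the 75th percentile of the array (vertical axis, its range differing between panels) for 9 transcription factors in undifferentiated, differentiated and cabozantinib-treated osteoblasts; circles are replicate 1, squares replicate 2, lines group means of 2 arrays, and open symbols are not well above background. Msx1 and Msx2 were at 3 separate levels, Sox11 was above background in undifferentiated osteoblasts alone, and Rorb was lowest on the 2 cabozantinib arrays.

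Runx2, the runt-domain factor required for osteoblast commitment, was measured near the floor of the array. The 2 arrays of undifferentiated cells read -4.54 and -5.21, those of differentiated cells -7.54 and -6.04, and those with cabozantinib -6.04 and -5.33. Neither differentiated array was well above background, nor was the first cabozantinib array. Both differentiated arrays were below both undifferentiated arrays, and the cabozantinib arrays overlapped the differentiated ones only at the edge, since -6.04 was reached on both sides. The difference between differentiated and undifferentiated osteoblasts was -1.92 ± 0.57 (SE, 2 arrays a group), with limma's adjusted p of 0.0689. Measured against the lowest signal that counted as above background, this was at least 1.97-fold lower. The same comparison passed the test with quantile normalization and with the authors' values. It did not pass with normexp (-0.65, limma's adjusted p of 0.831) or without a filter on low values (limma's adjusted p of 0.139). With 1 array left out in turn the difference ranged from -2.67 to -1.17. Cabozantinib-treated against differentiated osteoblasts gave 1.11 ± 0.57 (adjusted p of 0.258 with limma). No bound on the fold is given here, because the first cabozantinib array was itself not above background. Against undifferentiated osteoblasts the difference was -0.81 (adjusted p of 0.337 with limma) and it turned to 0.06 with quantile normalization. Thus the 3 conditions were not separated for Runx2 by the test.

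The second Runx2 probe was well above background on 1 array, the second undifferentiated one, and was not tested. Its level lay between -6.26 and -5.44 on all 6 arrays and did not follow the first probe, whose levels spanned -7.54 to -4.54. A short stretch upstream of Runx2 is shown because it holds the letters of a runt site close to those of a nuclear receptor half-site. It is the minus strand of chr17:44814697-44814721 in GRCm38.p6, from RefSeq, and it lies upstream of a transcript start that is inside the annotated span of the gene. Capitals mark AGGTCA, the half-site of ROR receptors, and ACCACATG, in which the runt letters ACCACA, which read as TGTGGT on the other strand, overlap the E-box CACATG.

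Runx2: ctgtgAGGTCAcaaACCACATGatt

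Among 32851 upstream windows of 250 bases, searched on both strands, 14.0% held TGTGGT, 14.0% held AGGTCA and 66.2% held an E-box (CANNTG). These matches describe letters, not bound sites.

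Sp7, the zinc finger factor needed for osteoblasts to mature, had a spread between replicates (SD of 0.85 to 2.07) about as large as its differences between conditions. Undifferentiated osteoblasts had levels of -4.40 and -2.63, differentiated osteoblasts -6.82 and -3.90, and cabozantinib-treated osteoblasts -6.16 and -4.95. The first differentiated and the first cabozantinib array were not well above background. Replicate 2 was the higher of the pair in each condition. The difference between differentiated and undifferentiated osteoblasts was -1.85 (95% interval -4.19 to 0.50), with limma's adjusted p of 0.314. Cabozantinib-treated osteoblasts differed by -0.19 from differentiated ones (adjusted p of 0.942 with limma) and by -2.04 from undifferentiated ones (adjusted p of 0.176 with limma). The sign of the former turned with quantile normalization, which gave 0.56. The intervals of Sp7 were the widest of the 9 factors and leave changes of several fold in size undetected.

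Msx1, a homeodomain repressor of craniofacial mesenchyme, was highest before differentiation. The level was -0.59 and -0.88 before differentiation, -2.96 and -2.93 after it, and -2.24 and -2.02 after it with cabozantinib. No 2 conditions overlapped, and the cabozantinib arrays lay between the others. Msx1 fell by 2.21 on the log2 scale with differentiation, or 4.62-fold (SE 0.33, adjusted p of 0.00594 with limma), and it was called with each of the 6 arrays left out in turn. It was not called with normexp, where the difference was -1.60. Cabozantinib-treated against undifferentiated osteoblasts gave -1.40 ± 0.33 (SE) with limma's adjusted p of 0.0259, a call that was lost without the first undifferentiated array (-1.25) or without either cabozantinib array (-1.51 and -1.29), and also with normexp, without a filter on low values and with the replicate number as a block. The difference between cabozantinib-treated and differentiated osteoblasts was 0.81 (95% interval 0.03 to 1.59), with an adjusted p of 0.158 by limma, so this middle position did not pass the test.

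Msx2, the close relative of Msx1 that acts in suture mesenchyme, followed the same order. The 2 arrays of undifferentiated cells read 3.38 and 3.35, those of differentiated cells 1.28 and 1.71, and those with cabozantinib 2.29 and 2.11. Again no 2 conditions overlapped, with the cabozantinib arrays in the middle. Msx2 fell by 1.87 on the log2 scale with differentiation, or 3.65-fold (SE 0.34, adjusted p of 0.0121 with limma). This call was lost without the first differentiated array, where the difference was -1.66. Cabozantinib-treated against undifferentiated osteoblasts gave -1.16 ± 0.34 (SE) with limma's adjusted p of 0.0462, which was lost with any of the 6 arrays left out, with normexp, without a filter, with the block and with the 4 arrays compared fitted alone. Cabozantinib-treated against differentiated osteoblasts gave 0.71 (95% interval -0.09 to 1.51) with limma's adjusted p of 0.228.

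Dlx3, a homeodomain activator of osteoblast and tooth genes, was steady between replicates. Undifferentiated osteoblasts had levels of 2.30 and 2.29, differentiated osteoblasts 2.93 and 2.79, and cabozantinib-treated osteoblasts 2.82 and 2.68. Both groups kept in differentiation medium lay above the undifferentiated arrays and overlapped each other. The difference from undifferentiated osteoblasts was 0.57 (95% interval -0.19 to 1.33; adjusted p of 0.343 with limma) without cabozantinib and 0.45 (95% interval -0.31 to 1.21; adjusted p of 0.346 with limma) with it. The difference between the latter groups was -0.11 (95% interval -0.87 to 0.65; adjusted p of 0.890 with limma).

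Dlx5, a homeodomain activator induced by BMP signaling that acts on Runx2 and Sp7, was highest on the differentiated arrays. The level was -1.49 and -1.82 before differentiation, -1.13 and -0.79 after it, and -2.26 and -1.73 after it with cabozantinib. The differentiated arrays did not overlap either of the other groups, which overlapped each other. The difference was 0.69 (95% interval -0.17 to 1.56; adjusted p of 0.303 with limma) from undifferentiated to differentiated osteoblasts. Cabozantinib-treated against differentiated osteoblasts gave -1.03 (95% interval -1.90 to -0.17; unadjusted p of 0.0254 and adjusted p of 0.111 with limma). Neither comparison passed the test.

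Sox11, a SoxC factor of progenitor cells, had the largest fall of the 9 factors with differentiation. The 2 arrays of undifferentiated cells read -1.55 and -2.27, those of differentiated cells -7.45 and -7.38, and those with cabozantinib -5.68 and -5.64. The undifferentiated arrays alone gave a signal well above background, and the other 4 did not. The fitted log2 difference with differentiation was -5.51 ± 0.37 (SE), with an adjusted p of 0.000447 by limma. As a bound this was at least 16.0-fold lower, taking for each differentiated array the lowest signal that was well above background. Cabozantinib-treated osteoblasts were at least 11.8-fold lower than undifferentiated ones (log2 difference of -3.75, adjusted p of 0.00189 with limma). Both of these calls held with each of the 6 arrays left out, but neither passed with normexp, where the first difference was -1.99.

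No difference between cabozantinib-treated and differentiated osteoblasts is read from Sox11, because none of these 4 arrays was above background. Limma's adjusted p of 0.0308 was reached by a probe tested through its undifferentiated arrays alone. Sox11 was among the genes the study had picked from these arrays for this comparison. The second Sox11 probe was well above background on 1 array, the second undifferentiated one, at -4.05. It was at -6.69 on the first undifferentiated array and between -7.76 and -7.63 on the other 4, and it was not tested. On the second probe the cabozantinib arrays were not above the differentiated arrays.

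Upstream sequences are shown for Msx1, Msx2 and Sox11 because these 3 genes fell together with differentiation. Each is the 250 bases before the transcript start, from RefSeq on GRCm38.p6, all on the minus strand: chr5:37824586-37824835 for Msx1, chr13:53472781-53473030 for Msx2 and chr12:27342719-27342968 for Sox11. Capitals mark the GC box of Sp and KLF factors (GGGCGG, or CCGCCC on the other strand) and E-boxes (CANNTG).

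Msx1: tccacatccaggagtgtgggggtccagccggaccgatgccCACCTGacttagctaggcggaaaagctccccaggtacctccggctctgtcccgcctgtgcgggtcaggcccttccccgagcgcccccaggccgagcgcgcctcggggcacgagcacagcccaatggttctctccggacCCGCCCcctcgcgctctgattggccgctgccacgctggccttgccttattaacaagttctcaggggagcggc

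Msx2: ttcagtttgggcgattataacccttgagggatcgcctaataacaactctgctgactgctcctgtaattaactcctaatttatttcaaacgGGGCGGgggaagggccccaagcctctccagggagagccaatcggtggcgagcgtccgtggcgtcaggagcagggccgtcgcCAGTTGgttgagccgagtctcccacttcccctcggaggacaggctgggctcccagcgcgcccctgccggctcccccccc

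Sox11: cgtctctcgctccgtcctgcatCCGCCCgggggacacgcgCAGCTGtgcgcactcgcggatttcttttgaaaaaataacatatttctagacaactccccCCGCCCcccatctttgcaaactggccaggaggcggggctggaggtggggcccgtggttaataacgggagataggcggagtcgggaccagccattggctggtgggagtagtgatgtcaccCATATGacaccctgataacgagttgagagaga

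Msx1 and Msx2 each held 1 GC box and 1 E-box in this window, and Sox11 held 2 of each. Over all windows, 32.7% held a GC box. None of the 3 windows held the runt letters TGTGGT, the half-site AGGTCA, the homeodomain letters TAATTG (in 7.2% of all windows) or the HMG-box letters ACAAAG (in 16.5%), on either strand. TAATTG was the only homeodomain form searched. The shorter letters TAAT occur in each of the 3 windows on one strand or the other, within TAATTA in that of Msx2. Their GC content was 68.0%, 61.6% and 58.0%, against a median of 52.4% over all windows. The letters are a description of these windows alone.

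Twist1, a basic helix-loop-helix factor that holds back osteoblast maturation, showed no difference beyond its replicate spread. Undifferentiated osteoblasts had levels of 1.55 and 2.43, differentiated osteoblasts 1.65 and 1.30, and cabozantinib-treated osteoblasts 1.75 and 1.39. All 3 groups overlapped. The difference between differentiated and undifferentiated osteoblasts was -0.51 (95% interval -1.49 to 0.46; adjusted p of 0.540 with limma). Cabozantinib-treated osteoblasts differed by 0.09 from differentiated ones (95% interval -0.88 to 1.07; adjusted p of 0.934 with limma) and by -0.42 from undifferentiated ones (adjusted p of 0.507 with limma).

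Among the factors above background on every array, Rorb alone had both cabozantinib arrays below all arrays of the other groups. The level was -2.40 and -2.49 before differentiation, -2.62 and -2.72 after it, and -4.39 and -4.40 after it with cabozantinib. All 6 arrays were well above background. In cabozantinib-treated against differentiated osteoblasts Rorb fell by 1.73 on the log2 scale, or 3.31-fold (SE 0.32, adjusted p of 0.0259 with limma), and by 1.44 relative to the median gene. Against undifferentiated osteoblasts it fell by 1.95, or 3.86-fold (adjusted p of 0.00896 with limma), a call that was lost without either cabozantinib array and with normexp (-1.44, adjusted p of 0.135 with limma). This difference was -1.30 with quantile normalization and with the authors' values. Differentiated and undifferentiated osteoblasts differed by -0.22 (95% interval -0.98 to 0.53; adjusted p of 0.776 with limma).

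The call of Rorb against differentiated osteoblasts was lost when any of the 4 arrays compared was left out, with differences from -1.78 to -1.68 and limma's adjusted p from 0.0862 to 0.180. It was lost as well with quantile normalization and with the authors' values (-1.14 in both, limma's adjusted p of 0.0733 and 0.0739) and with normexp (-1.07, adjusted p of 0.846 by limma). Testing without a filter, only genes above background on all arrays, with the replicate block or on the mean of both probes also lost it (limma's adjusted p from 0.0588 to 0.0836). Rorb was also picked by the study from these arrays for this comparison, so its direction is not independent evidence. A second Rorb probe was at -2.75 and -5.15 in undifferentiated osteoblasts, at -5.02 and -4.49 in differentiated osteoblasts, and at -6.02 and -5.62 with cabozantinib, where it was not above background. Its differentiated and undifferentiated arrays overlapped, and its cabozantinib arrays were the lowest. On this probe cabozantinib-treated osteoblasts were at least 1.65-fold lower than differentiated ones, with an adjusted p of 0.408 by limma, so this probe did not pass the test. Both probes of Runx2, Sox11 and Rorb are plotted by array.

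**Figure D2:**
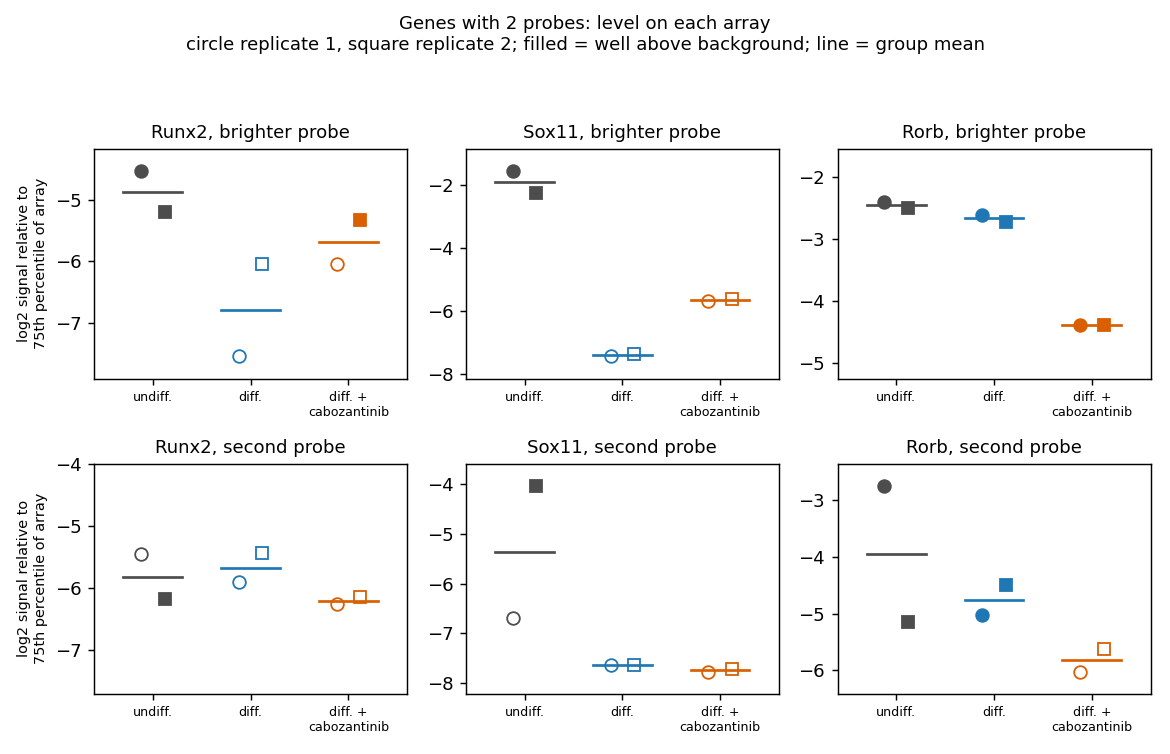
Log2 signal relative to the 75th percentile of the array (vertical axis, its range differing between panels) at the brighter and the second probe of Runx2, Sox11 and Rorb in the 3 conditions; circles are replicate 1, squares replicate 2, filled symbols are well above background and lines are group means. The second Runx2 and Sox11 probes were above background on 1 array each, and the cabozantinib arrays were lowest on both Rorb probes.

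With cabozantinib, 2 of the 9 factors passed the test against differentiated osteoblasts, Rorb lower and Sox11 at background on all 4 arrays compared, beside 12.8% of all genes called. When only genes well above background on all 6 arrays were tested, 0 of 6 factors were called by limma, beside 0.00571% of genes (1 of 17506), while 3 of the 6 and 21.4% of genes had an unadjusted p under 0.05. In this comparison 12.0% of genes were called lower and 0.810% higher, and the median of all genes was -0.29, or -0.08 with quantile normalization. With quantile normalization 113 genes were called and 44 of them were higher, against 187 higher of 2948. The median of the 9 factors was 0.09, or -0.0097 over the 6 above background on all arrays. Both cabozantinib arrays were above both differentiated arrays for 3 factors (Msx1, Msx2 and Sox11), as for 13.3% of all genes, and below for 2 (Dlx5 and Rorb), as for 44.1%, or 57.5% without overlap in either direction.

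In cabozantinib-treated against undifferentiated osteoblasts, Msx1, Msx2, Sox11 and Rorb were called lower, 4 of 9, beside 24.1% of all genes called, with 17.4% lower and 6.77% higher. Among factors and genes above background on all 6 arrays, Msx1, Msx2 and Rorb were called, 3 of 6 beside 17.0%. The median of the 9 factors was -1.16, against -0.35 over all genes. For 6 factors both cabozantinib arrays were below both undifferentiated arrays, as for 43.6% of all genes, and for 1, Dlx3, they were above, as for 19.7%, or 63.3% without overlap in either direction. This comparison shares its arrays with the previous comparisons, so the 3 sets of differences are not independent. The differences of the 9 factors are plotted with their intervals.

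**Figure D3:**
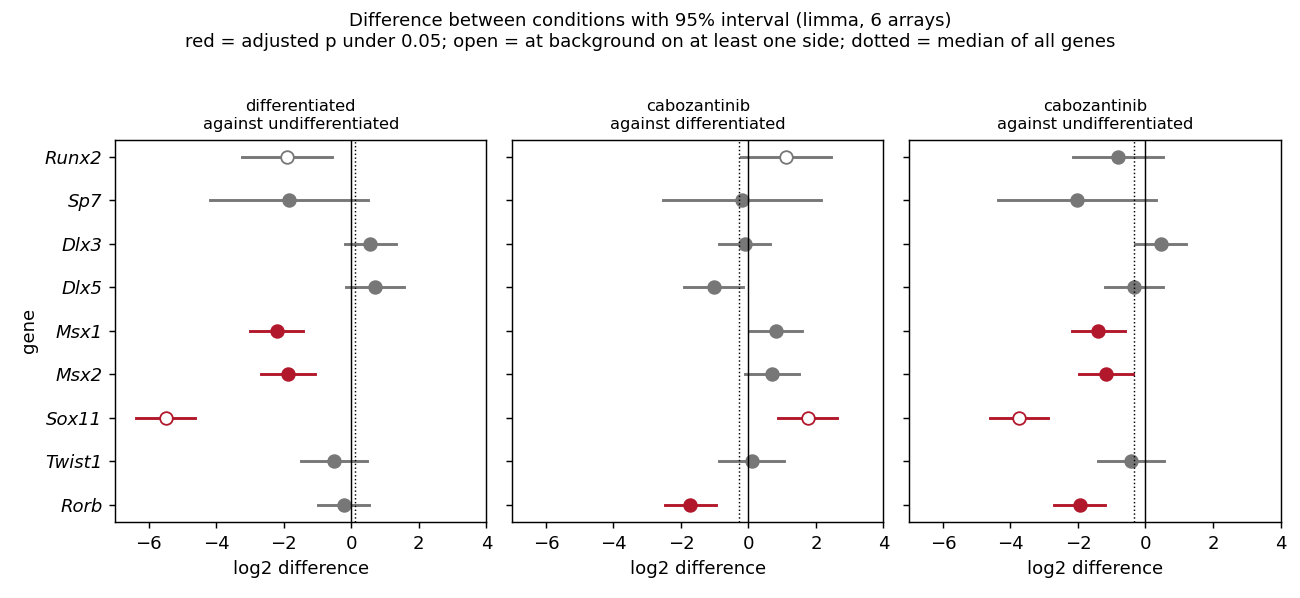
Log2 difference (horizontal axis) of 9 transcription factors in 3 comparisons of 2 against 2 arrays, with 95% intervals from limma; red marks an adjusted p under 0.05, open symbols a group not above background, and the dotted line the median of all genes. Msx1, Msx2 and Sox11 were called lower with differentiation, Rorb was called lower against both other groups with cabozantinib, Sox11 passed in the middle panel at background on all 4 arrays, and the sign of Sp7 in the middle panel and of Runx2 in the right panel turned with quantile normalization.

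The close relatives and partners of these factors were compared next. Of 16 such genes, 13 were tested. Cbfb, the partner that Runx proteins need for DNA binding, was at 4.06, 3.98 and 4.24 as mean levels in undifferentiated, differentiated and cabozantinib-treated osteoblasts, with differences of -0.08 and 0.25 for the first and second steps (adjusted p of 0.937 and 0.714 with limma). With differentiation 1 relative rose and 1 fell, beside 7.16% of all genes called higher and 6.25% lower. Sox12, a SoxC relative of Sox11, rose by 2.38 (adjusted p of 0.00938 with limma). Rora, a relative of Rorb, was at least 8.15-fold lower and at background on both differentiated arrays (adjusted p of 0.0455 with limma). Its replicates were far apart, at -3.86 and -1.91 on the undifferentiated arrays. With cabozantinib Rora was above background on the first array, at -3.70, and at background on the second, at -7.01. The other SoxC relative, Sox4, differed by -1.03 (adjusted p of 0.134 with limma) and Twist2 by -0.17 (adjusted p of 0.873 with limma).

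With cabozantinib against differentiated osteoblasts 3 of the 13 fell and none rose. Sox12 fell by 2.82 (adjusted p of 0.0231 with limma), from -1.65 and -1.33 to -4.52 and -4.10. The undifferentiated arrays were at -3.47 and -4.27, and the difference from them was -0.44 (adjusted p of 0.473 with limma). Dlx2, a homeodomain relative of Dlx3 and Dlx5, fell by 1.69 (adjusted p of 0.0417 with limma), from -0.50 and -0.71 to -2.18 and -2.41. Sp6, a zinc finger relative of Sp7, fell by 1.59 (adjusted p of 0.0304 with limma), from -2.72 and -2.57 to -4.24 and -4.21. The 13 had a median of -0.42 in this comparison, beside -0.29 over all genes, and 0.01 with differentiation, beside 0.11. Against undifferentiated osteoblasts Sp6, Sox4 and Twist2 were called lower in cabozantinib-treated osteoblasts, with differences of -1.25, -1.45 and -1.37. In that comparison 17.4% of all genes were called lower.

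Of 32 other transcription factors of the skeleton, 29 were tested, and 1 rose and 5 fell with differentiation. This stood beside 7.16% of all genes called higher and 6.25% lower. Trps1, a GATA-type factor of cartilage and bone, rose by 2.08 (adjusted p of 0.0156 with limma). Vdr, the vitamin D receptor, fell by 2.99 (adjusted p of 0.00207 with limma), and Fosl1, an AP-1 subunit, fell by 2.62 (adjusted p of 0.00430 with limma). Tcf7, Id3 and Snai1 were the others that fell. Atf4, which acts with Runx2 on the osteocalcin gene, differed by 0.48 (adjusted p of 0.663 with limma).

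With cabozantinib against differentiated osteoblasts, 1 of these 29 was called higher and 1 lower, beside 0.810% and 12.0% of all genes. Both, Vdr and Alx4, were above background on all 6 arrays. When such genes alone were tested in this comparison, none was called higher and only 1 of 17506 lower. Vdr was 1.36 higher (adjusted p of 0.0416 with limma), at -1.22 and -0.94 against -2.52 and -2.37, still under the undifferentiated arrays at 0.49 and 0.61. Alx4, a homeodomain factor of the skull, fell by 1.56 (adjusted p of 0.0439 with limma). The median of the 29 was -0.16, beside -0.29 over all genes. Against undifferentiated osteoblasts 4 of the 29 were lower in cabozantinib-treated osteoblasts, beside 17.4% of all genes. Fosl1 at -3.56 and Id3 at -2.73 had the lowest differences.

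Genes listed as targets of Runx2 and Sp7 were read in the same comparisons. Of 24 matrix and signalling genes, 23 were tested, and 7 rose and 1 fell with differentiation, beside 7.16% of all genes called higher and 6.25% lower. Phex, a peptidase of late osteoblasts and osteocytes, rose by 6.38 (adjusted p of 0.000391 with limma), from -3.96 and -3.27 to 2.95 and 2.58. Bglap2, an osteocalcin gene nearly identical to Bglap, which the probe may also bind, rose by 5.06 (adjusted p of 0.000534 with limma). The other 5 that rose were Omd, Dmp1, Smpd3, Mepe and Ibsp, from 2.20 to 4.39 on the log2 scale. Pth1r, the parathyroid hormone receptor, fell by 1.43 (adjusted p of 0.0477 with limma), and Spp1 (osteopontin) differed by -3.67 (adjusted p of 0.0546 with limma). Col1a1 and Alpl differed by 0.24 and 0.50 (adjusted p of 0.869 and 0.494 with limma). The median of the 23 was 0.24, beside 0.11 over all genes.

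With cabozantinib against differentiated osteoblasts 1 of the 23 rose, Ibsp (bone sialoprotein), 2.84-fold (adjusted p of 0.0416 with limma), from 4.74 and 5.09 to 6.25 and 6.58. This stood beside 0.810% of all genes called higher. The call did not hold when only genes above background on all 6 arrays, Ibsp among them, were tested. The study had also picked Ibsp and Vdr from these arrays. Bglap2 differed by -0.08, Phex by -1.20 and Spp1 by 0.32 (adjusted p of 0.938, 0.0823 and 0.899 with limma). The median of the 23 was 0.23, beside -0.29 over all genes. Against undifferentiated osteoblasts 7 were called higher in cabozantinib-treated osteoblasts, with Phex at 5.18 and Bglap2 at 4.99 the highest, and 1 was lower, Tnfsf11 (RANKL) at -1.75. In that comparison 6.77% of all genes were called higher and 17.4% lower. The plot of the gene lists shows each tested gene of the 9 factors, their relatives, the other skeletal factors, these genes and factors of other lineages.

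**Figure D4:**
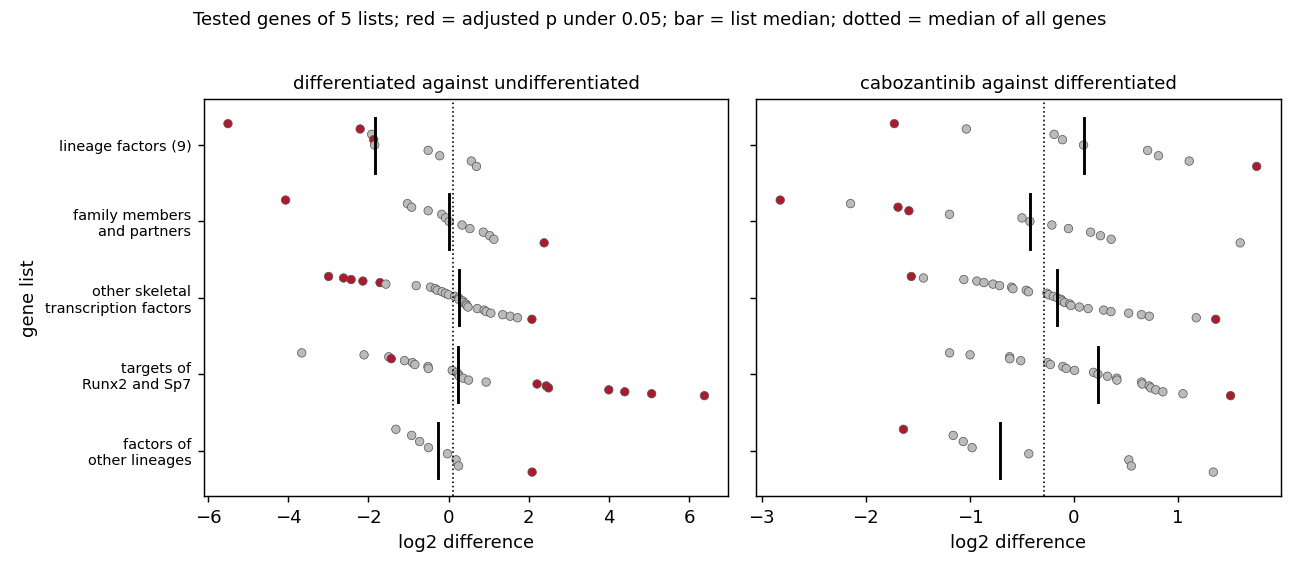
Log2 difference (horizontal axis) of each tested gene of 5 lists, differentiated against undifferentiated and cabozantinib-treated against differentiated osteoblasts, 2 against 2 arrays; red marks an adjusted p under 0.05 by limma, black bars list medians and dotted lines the median of all genes. With differentiation 3 of the 9 lineage factors were called lower, beside 6.25% of all genes. Among them Sox11 was tested through its undifferentiated arrays alone. Of 23 genes listed as targets of Runx2 and Sp7, 7 were called higher, beside 7.16% of all genes. The median of the lineage factors, -1.85, was -0.37 over the 6 above background on all arrays.

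Factors and markers of other cell types moved in the same comparisons. Their counts stand beside 7.16% of all genes called higher and 6.25% lower with differentiation. With cabozantinib these shares were 0.810% and 12.0% against differentiated osteoblasts, and 6.77% and 17.4% against undifferentiated ones. Of 14 transcription factors of other lineages, 8 were tested, and 1 rose with differentiation. Pparg, the adipocyte factor, rose by 2.08 with differentiation (adjusted p of 0.0130 with limma) and differed by -1.06 with cabozantinib (adjusted p of 0.117 with limma). Sox9, the chondrocyte factor, differed by -0.72 and 0.53 (adjusted p of 0.658 and 0.743 with limma). Myod1, the muscle factor, was the 1 called against differentiated osteoblasts, where it fell by 1.64 with cabozantinib (adjusted p of 0.0311 with limma). Against undifferentiated osteoblasts Myod1 and Myog were called lower, at -1.45 and -1.19.

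Among 5 tested adipocyte markers 3 rose with differentiation (Cfd, Adipoq and Fabp4). The other 2, Plin1 and Cidec, were not called, and Plin1 went the other way (-1.52). The mean level of the 6 on the array was -5.58 and -4.45 in undifferentiated, -2.95 and -1.87 in differentiated and -4.23 and -4.03 in cabozantinib-treated osteoblasts, and Adipoq and Cfd were at background on both undifferentiated arrays. With cabozantinib 3 fell against differentiated osteoblasts (Cfd, Fabp4 and Cidec). Fabp4 was above background on all 6 arrays, and only 1 of 17506 such genes was called in that comparison when tested alone. Against undifferentiated osteoblasts 3 adipocyte markers were called higher and 1 lower in cabozantinib-treated osteoblasts. Of 8 macrophage and osteoclast markers 5 rose with differentiation and none was called with cabozantinib, with mean levels of 0.90 to 0.91 in undifferentiated and 2.34 to 2.89 in the other osteoblasts. Of 6 proliferation markers 2 fell with differentiation (Top2a and Mcm2), with mean levels of 1.81 to 1.86 in undifferentiated and -0.10 to 0.68 in the other osteoblasts. Top2a was at background on both differentiated arrays and on the second cabozantinib array, so these means rest partly on background. The differences of the 6 with differentiation ran from -5.24 (Top2a) to -0.45. Of 6 chondrocyte markers 3 rose with differentiation and 1 fell with cabozantinib against differentiated osteoblasts. Of 4 tested skeletal muscle markers Acta1 fell with differentiation (-2.58), and with cabozantinib against differentiated osteoblasts Acta1 was called higher (1.87) and Mylpf at least 3.61-fold lower. In the latter comparison no gene was called higher when only genes above background on all 6 arrays, Acta1 among them, were tested. In undifferentiated osteoblasts the mean level of the 6 muscle markers was -3.64 and -4.28. It was -4.41 and -4.00 in differentiated and lowest, at -4.75 and -4.57, in cabozantinib-treated osteoblasts, with Des at background throughout. Of 3 tested endothelial markers Cdh5 rose by 2.18 with differentiation and fell 5.29-fold with cabozantinib against differentiated osteoblasts, while Tek and Tie1 were at background on every array. Pecam1 and Esam, the other 2 tested, differed by 0.61 and -0.56 with cabozantinib against differentiated osteoblasts and were not called. Neither of the 2 tested erythroid markers, Hba-a1 and Alas2, was called by limma, and Hba-a1 had an unadjusted p under 0.05 in both comparisons with cabozantinib. The part of these cell types and of proliferation in the falls of Msx1, Msx2 and Sox11 and in the difference of Rorb was not tested.

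Finally, for 5 of the 6 factors above background on all arrays, the 2 genes with the most similar levels over the 6 arrays were found among 17485 genes also above background on all of them. For Msx2 they were Sertad1 and Stip1 (Pearson's r of 0.999 for both). For Rorb they were Egln3 and Mpzl2 (0.997 and 0.993), and for Dlx5 Inmt and Hes2 (0.992 and 0.991). For Dlx3 they were Fcgr2b and Slc10a6 (0.991 and 0.990), and for Twist1 Mphosph6 and Supt16 (0.988 and 0.987). These values are descriptive, since 6 arrays in 3 conditions give many genes such a pattern, from 284 genes with r above 0.9 for Twist1 to 1366 for Rorb, and the points share scans and signal strength.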

How the data were processed

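Gene expression was measured on 6 1-color arrays (4x44K mouse design), 2 for each of 3 conditions. The deposited scanner output of Feature Extraction 11.0.1.1 held Cy3 intensity values that, per the file headers, had been background-subtracted and detrended and not scaled between arrays. The authors also deposited a table of log2 values for 30439 probes, already brought to like distributions by steps not given in the sources used here, which served as an alternative. Intensities were put on the log2 scale, without control and outlier spots, replicate spots were reduced to their mean, and every array was centred on its own 75th percentile. RefSeq accessions (GRCm38.p6) named 69.1% of the 39429 probes. The others counted as genes of their own.

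Probes well above background on at least 2 arrays were tested in limma 3.58.1 (R 4.3.3), fitted over the 6 arrays together (3 residual degrees of freedom plus 4.31 from pooled variances), without a replicate term. A gene was its brightest tested probe. A group below background on all its arrays was set at the lowest signal well above background (or its own signal, if higher), and the difference was then given as at least that fold. That lowest signal is not a detection limit for every probe. On the second differentiated array it was -6.17, where Runx2 at -6.04 was not well above background. Each such fold is therefore a bound under this setting only. The number of arrays limits the precision. Functions were tested on simulated data. Upstream windows were searched with Python 3.11.15 and pandas 2.3.3 and plots were made in matplotlib 3.10.9.

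The 9 factors and the gene lists were chosen with earlier results of these data known. Named genes were the 9 factors, the 2 highest and 2 lowest called genes of each list, and 13 set genes of the lists (Cbfb, Atf4 and Col1a1 among them). Some further called genes of the lists were named after their values were seen. The normexp alternative used the median spot and background signals, as the files used here hold no mean signal. The genes most similar to Msx1 and 1 listed skeletal factor are not reported here.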

Additional observations from a re-analysis of the deposited data

How the results depend on the processing

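The number of the 9 factors called was 3 for differentiated against undifferentiated osteoblasts, 2 for cabozantinib-treated against differentiated and 4 for cabozantinib-treated against undifferentiated. Of 504 values of single factors under the alternatives, 420 kept their direction and their side of the threshold, 63 lost the call, 10 gained it and 11 turned. With 1 array left out in turn the counts ranged from 2 to 4, 0 to 2 and 1 to 3. Cabozantinib-treated against differentiated gave 1 with quantile normalization and when the probes of each gene were averaged. It gave 0 by limma with the authors' values, normexp, no filter, probes above background on all 6 arrays and the replicate block, where 6, 1, 3, 3 and 2 factors had an unadjusted p under 0.05, beside 24.1%, 6%, 22.1%, 21.4% and 23.4% of all genes. Normexp gave 1 for differentiated and 0 for cabozantinib-treated against undifferentiated (5 with an unadjusted p under 0.05, beside 17.3% of genes), and no filter gave 2 for the latter. The methods' t-test gave 3, 4 and 2 factors at an unadjusted p under 0.05, beside 5.59%, 16.7% and 7.75% of genes, the unpaired test 4, 3 and 5, beside 14.7%, 21.2% and 22.9%, and both gave 0 in all 3 comparisons after Benjamini-Hochberg. These tests have 1 or 2 degrees of freedom.

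The deviations of same-numbered arrays had correlations of -0.51, -0.53 and 0.26. The 75th percentile signal of replicates 1 and 2 was 625 and 1773 in undifferentiated, 1095 and 649 in differentiated and 1277 and 961 in cabozantinib-treated osteoblasts. As signal strength differed in this way, the correlations cannot decide whether the arrays were paired. With the replicate number as a block the counts were 3, 0 and 3, and the last held Sp7, Sox11 and Rorb. The block gave 2242, 616 and 3091 of all genes called, against 3096, 2948 and 5572.

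The values that turned with cabozantinib against differentiated were those of Sp7 (0.56 with quantile normalization, 0.57 with the authors' values, and from -1.65 to 1.27 with 1 array left out, above 0 without the second differentiated or, at 0.41, the first cabozantinib array), of Twist1 (from -0.087 to 0.27 with 1 array left out, below 0 without the same arrays, at -0.087 and -0.086), and with normexp of Runx2 (-0.042) and Dlx3 (0.074). Against undifferentiated, Runx2 turned to 0.062 with quantile normalization and 0.063 with the authors' values, and Twist1 ranged from -0.86 to 0.022 with 1 array left out, the latter without the second undifferentiated array. The cause was not tested for any of these.

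Over all genes the counts called ranged from 0 to 3590, 0 to 4897 and 0 to 5931 under the other settings, and with 1 array left out from 1576 to 3521, 0 to 4804 and 1852 to 6738. For cabozantinib-treated against undifferentiated, 1872 of 3420 calls were higher with quantile normalization, against 1563 of 5572.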
